A study of Rattus norvegicus with 12 samples.

Results

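The transforming growth factor beta (TGF-beta), bone morphogenetic protein (BMP) and activin genes of the rat fetal kidney were compared between LD and CPS at 19 days of gestation. They were taken by gene symbol, as the TGF-beta ligands and receptors, the Bmp, Gdf and inhibin or activin genes, the Acvr and Bmpr receptors, the Smads, the latent TGF-beta binding proteins (Ltbp), Grem1, Nog and the follistatins. Of 14557 genes with a single symbol on the array, 44 met this rule, namely 25 ligands, 7 receptors, 5 Smads and 7 binding proteins or antagonists. Each was measured by 1 transcript cluster, the set of probes that reports a gene, out of 36685 clusters in all. Several genes of the pathway, among them Tgfb2, Tgfbr2, Bmpr2, Acvr1, Acvr2b, Smad1, Smad4, Smad6 and Ltbp1, had no cluster with a symbol of their own in the annotation used and were not analysed here, and Gdf1 shared its cluster with another gene.

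Each group comprised 6 whole-transcript arrays (Affymetrix Rat Gene 2.1 ST), and all animals were Rattus norvegicus without any genetic change. LD mothers stayed on a cycle of 12 h of light and 12 h of darkness throughout pregnancy, whereas in CPS (chronic photoperiod shifting) the cycle was reversed every few days of gestation and was normal again just before sampling. Each array held total RNA from kidneys of 6 fetuses, pooled without regard to sex and read here as coming from 1 mother. The fetuses were thus not measured singly, and the clock time of dissection is given as 8 h in the protocol and as 20 h in another field of the labels. All values are log2 intensities after Robust Multiarray Average (RMA). A difference of 1 on this scale is a doubling, and levels were not compared between genes, since probes differ in brightness.

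Most ligands of this family are secreted dimers that bring together type I and type II receptors with kinase activity, and the type I receptors then phosphorylate Smad proteins that carry the signal to the nucleus. TGF-beta and activin act mainly through Smad2 and Smad3, and the BMPs through Smad1, Smad5 and Smad9, while Smad7, follistatin, noggin and gremlin hold signalling back, as does inhibin, which blocks the activin receptors. Gdf15 is counted here by its name but signals through another kind of receptor. In the developing kidney of the mouse, BMP7 keeps nephron progenitors alive, BMP4 and gremlin set where the ureteric bud grows out and branches, and TGF-beta drives the deposition of matrix.

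The kidney label was borne out by its markers. Mean levels were 7.67 in both groups for Six2 of nephron progenitors, 7.99 in LD and 8.04 in CPS for Ret of the ureteric bud, and 8.58 and 8.87 for Podxl of podocytes. Genes of olfactory and vomeronasal receptors, 1245 in number and mostly silent in kidney, gave a measure of dim signal, their 95th percentile being 2.66. Of the 44 genes, 33 had a mean above this level and 11 lay at or below it (Gdf2, Gdf3, Gdf6, Gdf9, Bmp8b, Bmp10, Bmp15, Inhbc, Inhbe, Acvr1c and Fstl5). Markers of neighbouring tissues varied between pools. The mean of 9 liver genes ran from 4.76 to 7.27 in LD and from 5.32 to 7.66 in CPS, that of 7 genes of the adrenal cortex from 2.28 to 2.73 and from 2.37 to 3.37, and that of 6 genes of skeletal muscle from 3.39 to 4.99 and from 3.62 to 7.39. Of these, 0 liver, 4 adrenal and 1 muscle gene passed the test described below, all with higher values in CPS, and the exact two-sided permutation p of the group means was 0.208, 0.0541 and 0.0996. None of the 4 blood markers was measured under a single symbol. Array medians lay between 3.31 and 3.50.

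Promoters are shown for 3 of the genes that were higher in CPS, because they differ widely in base composition and because genes of the circadian clock act through the E-box CACGTG. They are the 250 bases before the start of each gene, 5′ to 3′ on the strand of the gene, from RefSeq on rat build GRCr8. The strand is plus for all 3. Capitals mark matches, on either strand, of CACGTG, of the Smad-binding element CAGAC, which reads GTCTG on the other strand, and of the GC-rich element GGCGCC, none of which overlapped another. Acvr1b lies at chr7:134164751-134165000, Tgfbr3 at chr14:2634044-2634293 and Bmp5 at chr8:85397379-85397628.
Acvr1b: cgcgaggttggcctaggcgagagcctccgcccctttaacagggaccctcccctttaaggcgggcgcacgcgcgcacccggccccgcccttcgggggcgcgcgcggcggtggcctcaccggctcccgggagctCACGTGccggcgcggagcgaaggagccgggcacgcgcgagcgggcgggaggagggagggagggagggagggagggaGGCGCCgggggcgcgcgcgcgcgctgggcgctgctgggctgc
Tgfbr3: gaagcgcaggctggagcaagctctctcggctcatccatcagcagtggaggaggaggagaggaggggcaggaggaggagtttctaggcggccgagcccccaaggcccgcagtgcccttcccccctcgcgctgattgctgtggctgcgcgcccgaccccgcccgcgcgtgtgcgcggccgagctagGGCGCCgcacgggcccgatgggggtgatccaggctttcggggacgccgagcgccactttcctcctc
Bmp5: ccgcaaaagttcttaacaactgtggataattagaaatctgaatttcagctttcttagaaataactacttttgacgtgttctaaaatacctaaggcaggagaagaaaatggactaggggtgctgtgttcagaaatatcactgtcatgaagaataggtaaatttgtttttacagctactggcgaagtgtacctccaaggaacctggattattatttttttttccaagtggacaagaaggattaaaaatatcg
The Acvr1b window had a GC content of 79.6%, with CACGTG starting at base -118 and GGCGCC at base -42. The Tgfbr3 window had a GC content of 71.2% with GGCGCC at base -66, and the Bmp5 window a GC content of 35.2% with none of the motifs. The Bmp3 window, not shown, had a GC content of 53.6% and none of the motifs, and Acvrl1 and Fst had no entry. The median over all promoters was 52.0%. Of 27457 promoters in the table, 5.79% held CACGTG, 42.8% held CAGAC and 9.24% held GGCGCC. Among the 37 genes described here that had an entry, the counts were 2, 13 and 10 (5.41%, 35.1% and 27.0%). These windows were not matched to the others in GC content, and its part in the share with GGCGCC was not tested. A match is a string of letters and not a tested binding site.

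In CPS fetal kidneys, 6 of the 44 genes were higher than in LD and 0 were lower at an unadjusted p under 0.05 in limma, the threshold of the study. They were 3 receptors (Acvr1b, Acvrl1 and Tgfbr3), the activin antagonist Fst and the ligands Bmp5 and Bmp3, and all lay 0.26 to 0.30 higher on the log2 scale, a rise of 19.5% to 23.1%. Among all named genes 2.94% were higher and 1.78% lower by the same rule, against 13.6% and 0 here. The sign of the difference was positive for 30 of the 44 genes (68.2%), against 53.6% of all named genes, and the median difference was 0.05 against 0.01. After Benjamini-Hochberg adjustment over all clusters, 0 of the 36685 passed in limma, where 1946 had an unadjusted p under 0.05, and 0 passed in the methods' unpaired one-way test, where 2020 did. The adjusted p was 0.887 for each of the 6 genes. Where the pools are taken as litters, the p-values measure the spread between litters.

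**Figure D1:**
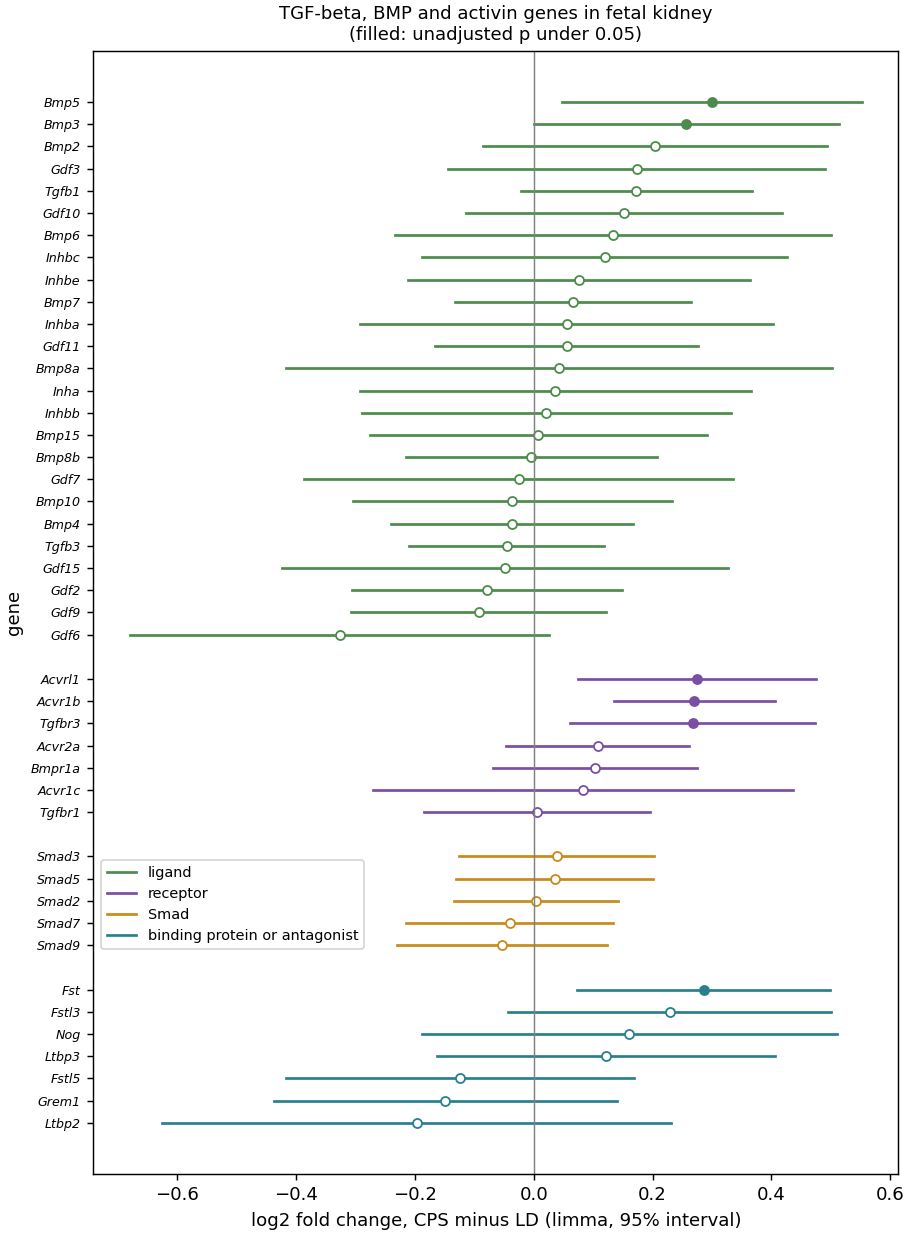
Difference in log2 value, CPS minus LD, for each of the 44 genes by role, with the 95% interval from limma (6 arrays per group), where filled points have an unadjusted p under 0.05. The 7 receptors all lie to the right of 0, Tgfbr1 by only 0.01, and the 5 Smads lie between -0.05 and 0.04.

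By role, the receptors had the highest share of genes past the test. Of 7 receptors, 3 were higher and the other 4 also had positive differences, with a median of 0.11 and a range of 0.01 to 0.28. Tgfbr1, at 0.01, was level between the groups, and Acvr1c was dim. Of 25 ligands, 2 were higher, 16 had positive differences and the median was 0.04. Of 7 binding proteins or antagonists, 1 was higher and the median was 0.12, and of 5 Smads none passed and the median was 0.00. Without LD replicate 1 the median of the binding proteins and antagonists was 0.03. Among all named genes 2.94% were higher, 53.6% had positive differences and the median was 0.01. At those shares groups of 5 to 25 genes would hold few or no calls, so their absence among the Smads says little. These medians are descriptions, and the roles were not tested against each other.

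Among the ligands, the BMPs contributed both genes that passed. Bmp5, a BMP known in the mouse for its part in the growth of cartilage, ran from 5.10 to 5.41 in LD (median 5.21) and from 5.14 to 5.93 in CPS (median 5.50). CPS replicate 6 stood highest, CPS replicate 5 lay among the LD arrays, and 4 of 6 CPS arrays were above every LD array. The means were 5.22 ± 0.11 and 5.52 ± 0.26 (SD, n = 6 each), and the log2 fold change was 0.30 with a standard error of 0.12 and an exact two-sided permutation p of 0.0260. Without CPS replicate 4 it was 0.27 and no longer passed, without CPS replicate 6 it was 0.22 and passed, and with the liver and adrenal cortex means as covariates it was 0.14 and did not pass either.

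Bmp3, an unusual BMP that opposes signalling by the others, ran from 5.24 to 5.60 in LD (median 5.48) and from 5.46 to 6.10 in CPS (median 5.64). CPS replicates 2, 4 and 5 were above every LD array, and the other 3 CPS arrays lay within the LD range. The means were 5.46 ± 0.14 and 5.71 ± 0.26 (SD, n = 6 each), with a log2 fold change of 0.26, a standard error of 0.12 and a limma p of 0.0493. The exact two-sided permutation p was 0.0671, and in the methods' unpaired one-way test Bmp3 did not pass (p = 0.0566). The limma call was lost in 8 of the 12 fits that left out 1 array each (LD replicates 2 to 6 and CPS replicates 2, 4 and 5).

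The ligands best known from kidney development differed little. Bmp7 had a mean of 9.04 ± 0.15 in LD and of 9.10 ± 0.15 in CPS (SD, n = 6 each), a difference of 0.07 with a 95% interval of -0.13 to 0.26. Bmp4, made by the mesenchyme around the ureteric bud, was 8.38 ± 0.19 and 8.34 ± 0.10, a difference of -0.04 with an interval of -0.24 to 0.17. Gdf11, which in the mouse is needed for outgrowth of the ureteric bud, differed by 0.06 with an interval of -0.17 to 0.28. For these genes a difference as large as that of Bmp5 lay outside the interval.

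Tgfb1, the TGF-beta most tied to fibrosis, ran from 6.39 to 6.72 in LD and from 6.56 to 6.96 in CPS, and 4 of 6 CPS arrays were above every LD array. Its log2 fold change of 0.17 did not pass (limma p = 0.0767, exact two-sided permutation p = 0.0693). Tgfb3 differed by -0.05 with an interval of -0.21 to 0.12. Bmp2, which acts on the branching ureteric bud, was 5.26 ± 0.22 in LD and 5.46 ± 0.26 in CPS, a difference of 0.20 (exact two-sided permutation p = 0.171), and 3 CPS arrays lay above all LD arrays.

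The 5 inhibin and activin chains all had small positive differences, from 0.02 for Inhbb to 0.12 for Inhbc, and none passed. Inhba, the chain of activin A, was 3.51 ± 0.37 and 3.57 ± 0.19. Of 8 Gdf ligands 0 passed and 3 had positive differences. With 2.94% of all named genes higher and 1.78% lower, groups this small would often hold no call. Gdf6, a BMP-like ligand of joints and the eye, had the most negative value of all 44 genes, with a log2 fold change of -0.33 and an exact two-sided permutation p of 0.0801. Its level was dim, from 1.93 to 3.15 in LD and from 2.06 to 2.43 in CPS.

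**Figure D2:**
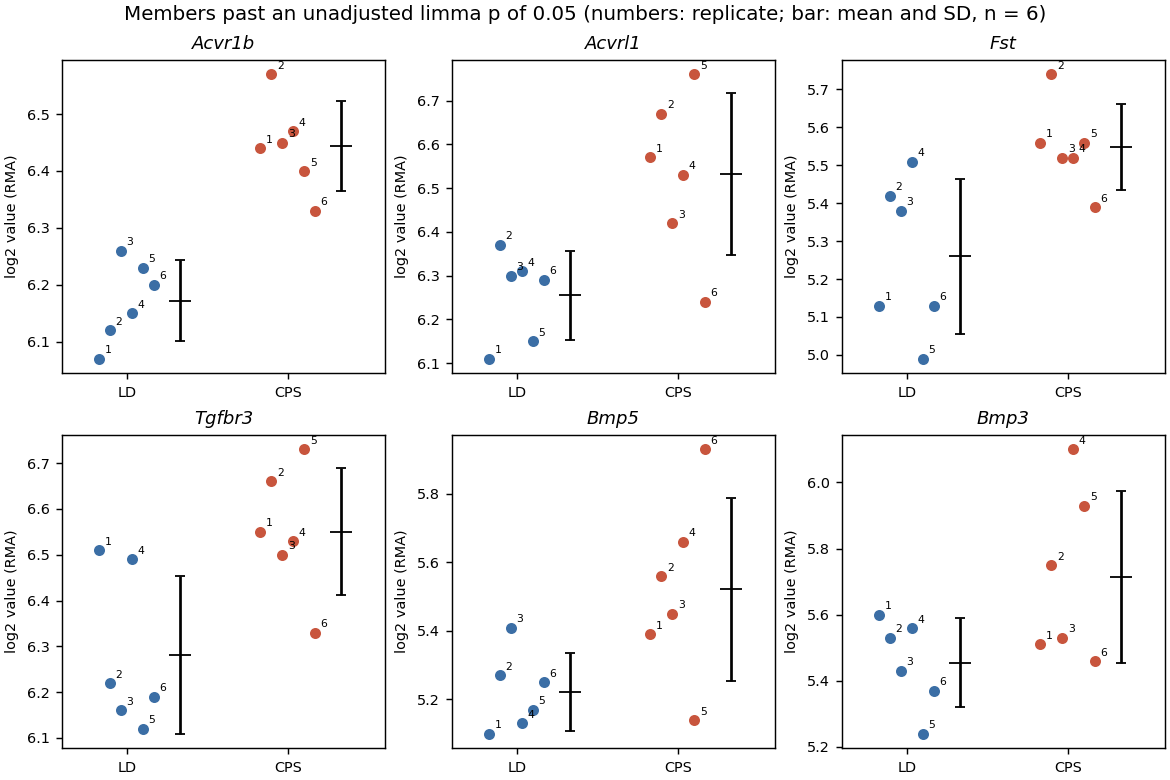
Log2 RMA value on each array (points, numbered by replicate) for the 6 genes with an unadjusted limma p under 0.05, with the mean and SD of each group beside the points (n = 6 each). Axes do not start at 0, and Acvr1b is the gene whose CPS arrays (6.33 to 6.57) all lie above its LD arrays (6.07 to 6.26).

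Among the receptors, Acvr1b was the one gene of the 44 in which every CPS array lay above every LD array, as in 24 of all named genes (0.165%). It is the type I receptor through which activin and Nodal signal to Smad2 and Smad3. It ran from 6.07 to 6.26 in LD (median 6.18) and from 6.33 to 6.57 in CPS (median 6.45), so that all 6 CPS arrays were above all 6 LD arrays. The means were 6.17 ± 0.07 and 6.44 ± 0.08 (SD, n = 6 each). The log2 fold change was 0.27 with a standard error of 0.06, and the exact two-sided permutation p was 0.00216, the smallest that 924 regroupings of the arrays can give. The call held in all 12 fits without 1 array and in the other settings run.

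Acvrl1, a type I receptor of endothelial cells for BMP9 (the product of Gdf2) and BMP10, ran from 6.11 to 6.37 in LD (median 6.29) and from 6.24 to 6.76 in CPS (median 6.55). CPS replicate 5 was highest, and CPS replicate 6 was the one CPS array within the LD range. The means were 6.25 ± 0.10 and 6.53 ± 0.19 (SD, n = 6 each), with a log2 fold change of 0.28, a standard error of 0.09 and an exact two-sided permutation p of 0.0173. Both ligands were dim, at 2.52 and 2.44 for Gdf2 and 2.46 and 2.42 for Bmp10 in LD and CPS. Of 8 endothelial markers, chosen after the data were seen, 0 passed and 7 had positive differences. They ran from -0.00 for Sox17 to 0.15 for Erg and 0.24 for Cdh5, which like Acvrl1 was highest in CPS replicate 5. Their mean ran from 6.65 to 6.96 in LD and from 6.79 to 7.10 in CPS. With that mean as a covariate the Acvrl1 difference was 0.22 and still passed. The mean is a rough measure of endothelial content, whose part in the difference was not tested.

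Tgfbr3, the co-receptor betaglycan that binds TGF-beta 2 and inhibin, ran from 6.12 to 6.51 in LD (median 6.20) and from 6.33 to 6.73 in CPS (median 6.54). LD replicates 1 and 4 were as high as the lower CPS arrays, and 4 CPS arrays were above every LD array. The means were 6.28 ± 0.17 and 6.55 ± 0.14 (SD, n = 6 each), with a log2 fold change of 0.27, a standard error of 0.09 and an exact two-sided permutation p of 0.0173. It was 0.23 and no longer passed without LD replicate 6 and CPS replicate 2, the arrays with the highest liver mean of their group.

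The other 4 receptors did not pass. Acvr2a, a type II receptor that activin and several BMPs share, was 7.81 ± 0.11 in LD and 7.92 ± 0.08 in CPS, a difference of 0.11 with an interval of -0.05 to 0.26, and all 6 CPS arrays were above the LD median of 7.82. Bmpr1a, the type I receptor of BMP2 and BMP4, differed by 0.10 with an interval of -0.07 to 0.27. Tgfbr1, the type I receptor of TGF-beta, was 8.05 in both groups, with an interval of -0.19 to 0.20 for the difference. Acvr1c was dim.

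The Smads varied least between arrays, with a median residual SD of 0.11 against 0.14 for receptors, 0.23 for ligands and 0.24 for binding proteins and antagonists. All 5 Smads lay above the dim reference, whereas 11 genes of other roles did not, and the spread was not compared at like levels. The difference was 0.00 for Smad2 and 0.04 for Smad3, which carry the TGF-beta and activin signal. For Smad5 and Smad9, which carry the BMP signal, it was 0.04 and -0.05, and for the inhibitory Smad7 -0.04. Their 95% intervals all lay between -0.23 and 0.20, so that a difference of the size seen in Acvr1b was outside each of them. Phosphorylation of Smads, the step that signalling controls, is not read by these arrays.

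Among the binding proteins and antagonists, Fst passed. Its product follistatin binds activin and keeps it from the receptors. Fst ran from 4.99 to 5.51 in LD (median 5.26) and from 5.39 to 5.74 in CPS (median 5.54), and 5 of 6 CPS arrays were above every LD array. The LD arrays were spread over a wider range, with replicates 1, 5 and 6 low and 2, 3 and 4 close to the CPS values. The means were 5.26 ± 0.20 and 5.55 ± 0.11 (SD, n = 6 each), with a log2 fold change of 0.29, a standard error of 0.10 and an exact two-sided permutation p of 0.0108. Without LD replicate 6 and CPS replicate 2 it was 0.22 and no longer passed.

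Fstl3, a second activin-binding protein, differed by 0.23 and did not pass (exact two-sided permutation p = 0.0823). Its LD replicate 1 was 5.18, below all other arrays. Grem1, the BMP antagonist that in the mouse permits the ureteric bud to branch, was 5.04 ± 0.22 in LD and 4.89 ± 0.25 in CPS, a difference of -0.15. In CPS 1 array stood apart, replicate 1 at 5.38, and the other 5 ran from 4.66 to 4.88 against 4.79 to 5.31 in LD. Nog, which encodes the BMP antagonist noggin, differed by 0.16 with an interval of -0.19 to 0.51, Ltbp3, which tethers latent TGF-beta to the matrix, by 0.12, and Ltbp2, a matrix protein of the same family, by -0.20 with an interval of -0.63 to 0.23.

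**Figure D3:**
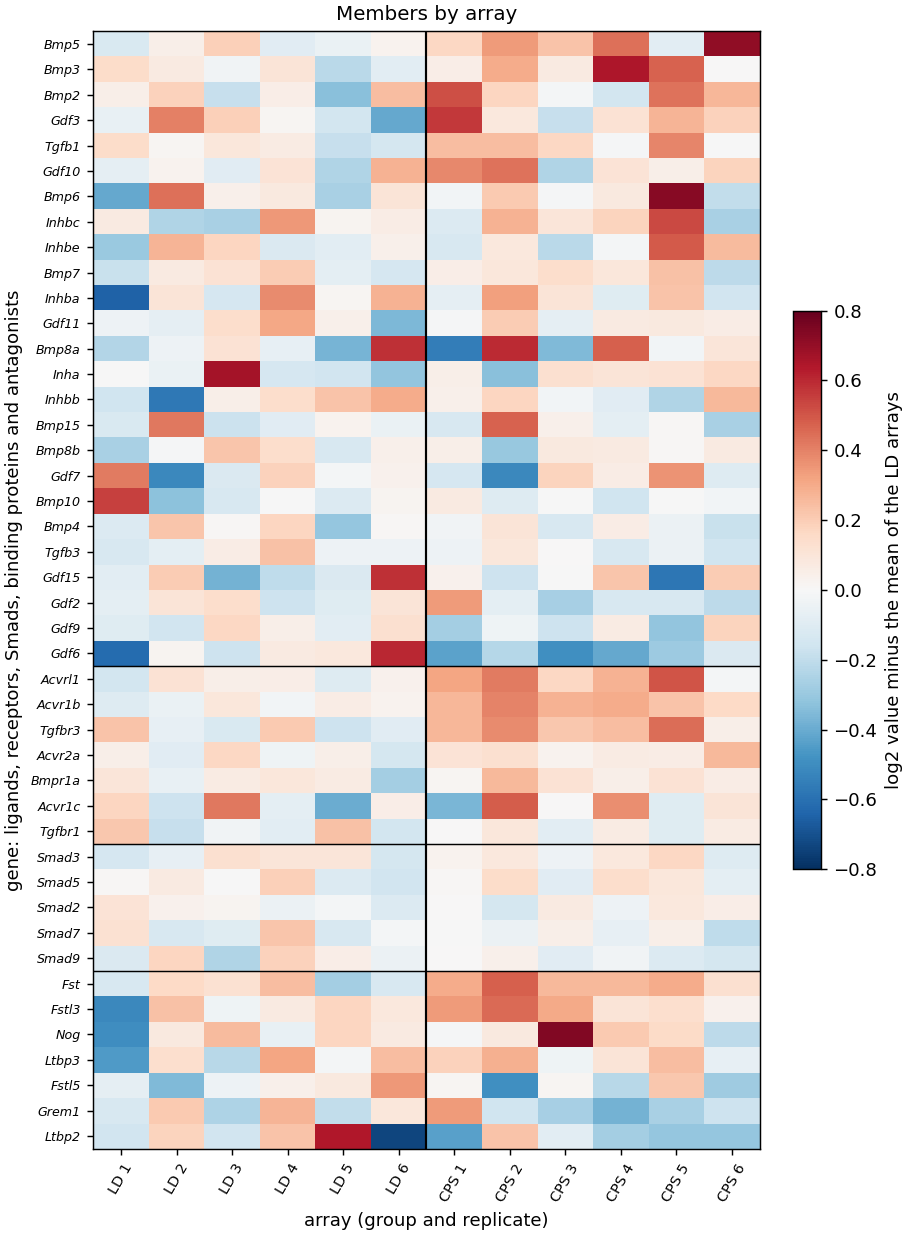
Log2 value of each of the 44 genes on each array minus the mean of its LD arrays (colour, from -0.8 to 0.8), with genes grouped by role from top to bottom and arrays in columns. Fst and the receptors other than Tgfbr1 and Acvr1c are mostly red across the CPS columns. Smads are pale throughout, and CPS replicate 2 has the most genes above their own median (33 of 44).

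The arrays differed in how many of the 44 genes stood above the gene's own median over the 12 arrays. In LD the counts were 13, 20, 21, 25, 12 and 20 for replicates 1 to 6, and in CPS 24, 33, 23, 26, 29 and 18. The groups thus overlapped, and CPS replicate 6 lay below several LD arrays. Each of the 6 genes that passed had its lowest value in LD replicate 1 (3 genes) or LD replicate 5 (3 genes), and its highest in CPS replicates 2 (2 genes), 5 (2 genes), 4 or 6 (1 gene each). CPS replicate 2 had the highest liver mean, 7.66, and an adrenal mean of 3.29. CPS replicate 5, where Acvrl1 and Tgfbr3 peaked, had a liver mean of 5.64 and an adrenal mean of 2.37, both within the LD range. Its endothelial mean, 7.10, was the highest of the 12 arrays. Its means of skeletal muscle markers, and of the stromal and podocyte markers described below, were also above every LD array.

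Of the 6 genes, Acvr1b and Acvrl1 still passed without LD replicate 6 and CPS replicate 2, the arrays with the highest liver means, at 0.25 each. With the liver and adrenal cortex means as covariates, Acvr1b (0.26), Acvrl1 (0.33), Tgfbr3 (0.29) and Fst (0.30) passed, and Bmp3 (0.24) and Bmp5 did not. With the endothelial mean as a covariate, Acvr1b (0.28), Acvrl1 (0.22), Tgfbr3 (0.19), Fst (0.22) and Bmp5 (0.36) passed, and Bmp3 (0.16) did not. Of 4 stromal markers, Foxd1 passed and was 0.19 higher in CPS (exact two-sided permutation p = 0.00433). Tbx18 (0.25), Pdgfrb (0.14) and Meis1 (-0.01) did not pass. The mean of the 4 ran from 6.77 to 7.01 in LD and from 6.82 to 7.28 in CPS (exact two-sided permutation p = 0.0801). The mean of 2 podocyte markers ran from 6.34 to 6.84 in LD and from 6.42 to 7.22 in CPS. It was 0.31 higher in CPS (exact two-sided permutation p = 0.0844), with CPS replicates 2, 4 and 5 above every LD array. The part of stroma and podocytes in the results was not tested. In whole kidneys, more cells of a type cannot be told apart from more RNA per cell.

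Other genes of the pathway were described from lists of extracellular genes, intracellular regulators and transcriptional targets. Of 26 measured extracellular genes 1 was higher and 1 lower (3.85% each, against 2.94% and 1.78% of all named genes). Their median difference was 0.11. Itgav, the alpha v integrin that frees TGF-beta from its latent complex, was 8.20 ± 0.11 in LD and 8.39 ± 0.10 in CPS (log2 fold change 0.19, exact two-sided permutation p = 0.0130), but no longer passed without LD replicate 5, without the arrays with the highest liver means, or with the liver and adrenal or the endothelial means as covariates. Dand5, an antagonist of Nodal, had a log2 fold change of -0.20 at levels of 2.86 and 2.67, just above the dim reference, and lost its call in 9 of the 12 fits without 1 array. Of 14 intracellular regulators 0 passed at the unadjusted threshold, in limma or in the methods' unpaired one-way test, and their median difference was 0.01.

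**Figure D4:**
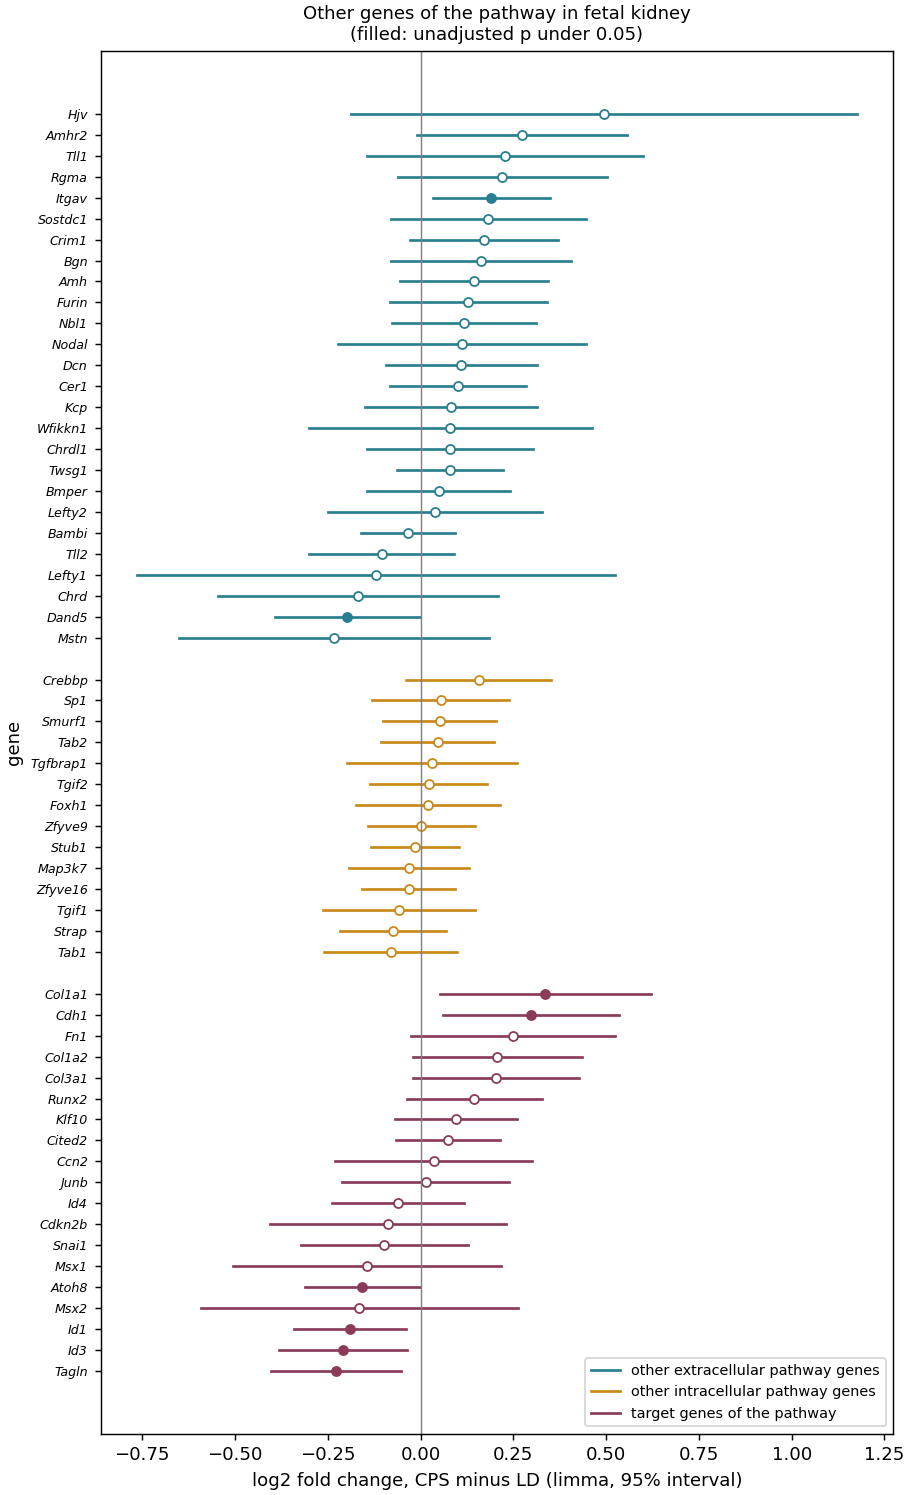
Difference in log2 value, CPS minus LD, with the 95% interval from limma (6 arrays per group) for other measured genes of the pathway, where filled points have an unadjusted p under 0.05. Intracellular regulators lie close to 0, and among the target genes Col1a1 and Cdh1 stand at the top and Tagln, Id3 and Id1 at the bottom.

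Of 19 measured target genes of the pathway, 2 were higher and 4 lower in CPS (10.5% and 21.1%, against 2.94% and 1.78% of all named genes), and the median difference was 0.01. The list named 30 genes and was chosen with earlier results of these data known, so these shares are descriptions. With each array centred on its median the counts were 2 and 0. On the lower side were Id1 and Id3, transcription regulators that are classic targets of BMP and Smad signalling, Atoh8, another target of BMP, and Tagln, a smooth muscle protein that TGF-beta induces. On the higher side were Col1a1, a chain of type I collagen that TGF-beta induces, and Cdh1, the epithelial cadherin that TGF-beta is known to lower.

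Id1 ran from 8.72 to 9.03 in LD and from 8.53 to 8.74 in CPS, where only CPS replicate 6 reached into the LD range. The means were 8.83 ± 0.12 and 8.64 ± 0.07 (SD, n = 6 each), a log2 fold change of -0.19 (exact two-sided permutation p = 0.00433). Id3 was 9.14 ± 0.14 and 8.93 ± 0.10, a log2 fold change of -0.21 (exact two-sided permutation p = 0.0260), with LD replicates 2 and 3 as low as the CPS arrays. Tagln was 9.26 ± 0.14 and 9.04 ± 0.11, a log2 fold change of -0.23 (exact two-sided permutation p = 0.00866). Atoh8 had a log2 fold change of -0.16 and lost its call in 9 of the 12 fits without 1 array. All 4 lost their call, though not their direction, when each array was centred on its median, at -0.15 for Id1, -0.17 for Id3, -0.19 for Tagln and -0.12 for Atoh8.

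Col1a1 ran from 8.98 to 9.44 in LD and from 9.08 to 9.81 in CPS, with means of 9.19 ± 0.17 and 9.52 ± 0.28 (SD, n = 6 each) and a log2 fold change of 0.34 (exact two-sided permutation p = 0.0390). CPS replicate 6 stood low among the CPS arrays, and the call was lost without LD replicate 1 or 2 or CPS replicate 2 or 5. Cdh1 ran from 7.07 to 7.47 in LD and from 7.33 to 7.75 in CPS, a log2 fold change of 0.30 (exact two-sided permutation p = 0.0325). CPS replicates 2, 4 and 5 were high in both genes. Without LD replicate 6 and CPS replicate 2, Id1 was the one target gene of these 6 that passed.

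**Figure D5:**
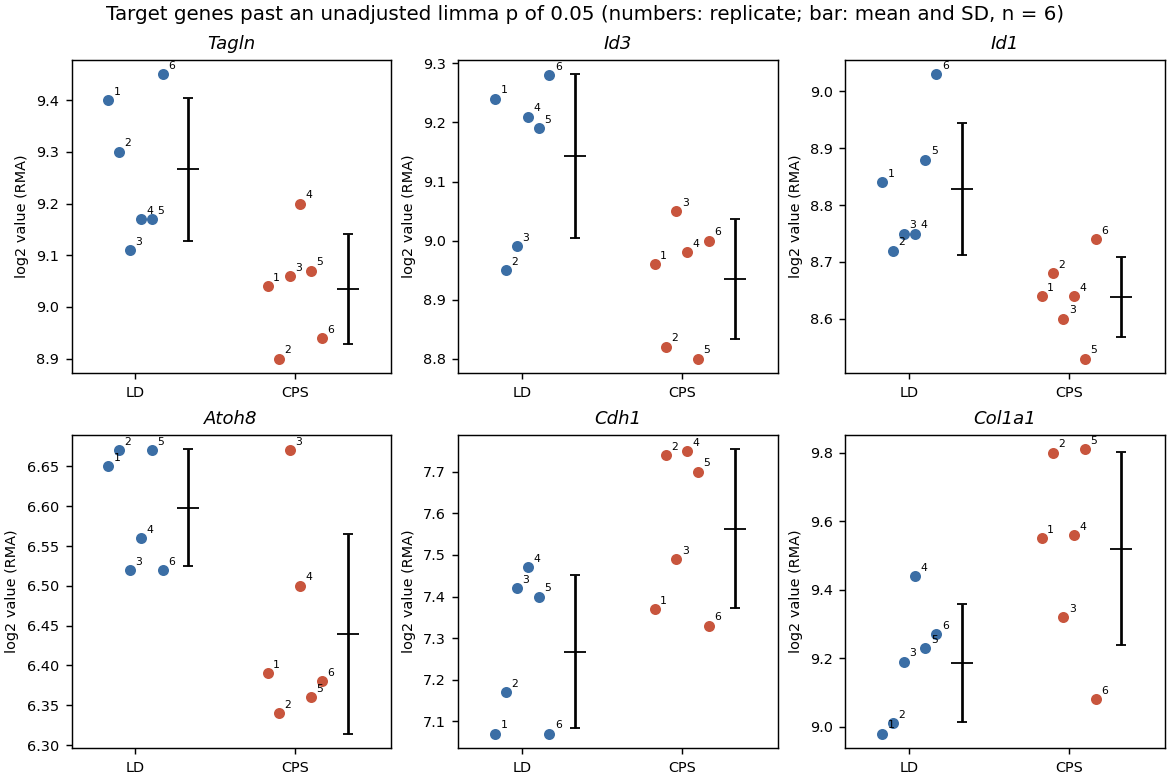
Log2 RMA value on each array (points, numbered by replicate) for the 6 target genes with an unadjusted limma p under 0.05, with the mean and SD of each group beside the points (n = 6 each). Axes do not start at 0, and Id1 overlaps between groups only through CPS replicate 6, at 8.74.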

How the data were processed

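Total RNA from fetal kidneys was hybridized to 12 Affymetrix Rat Gene 2.1 ST arrays. The authors made the deposited log2 values from the scans by RMA, which corrects background, normalizes quantiles and summarizes probes. Expression Console (Affymetrix) is named in the submitters' processing notes, without a version. Quantile normalization equalizes the arrays, so a shift shared by most genes would not be seen. Scans and detection calls were not analysed here. Precision is limited by the number of arrays.

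Groups followed the sample titles. Clusters were named from the platform annotation, with 14824 carrying 1 symbol, 829 several and 21032 none, and a gene with several clusters kept that of the highest mean. All 44 symbols are those of RefSeq. LD and CPS were compared over all 36685 clusters with limma 3.58.1 (R 4.3.3) by lmFit and eBayes, two-sided, at an unadjusted p under 0.05, with Benjamini-Hochberg adjustment beside it, and single genes by exact permutation over the 924 regroupings of 6 against 6 arrays. The steps were checked on simulated arrays.

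The members and lists were chosen with earlier results of these data known, and the endothelial markers after the values had been seen. Named genes were those past the threshold, genes chosen for their role in kidney or pathway, the extremes of each role and those with 1 array far from its group. Alternatives comprised an unpaired one-way test as in the methods, a block for the replicate number, an intensity trend with robust spread, array weights, quantile normalization once more, median centring, removal of clusters under the median level, the mean over clusters of a gene, marker means as covariates and each array left out.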

Additional observations from a re-analysis of the deposited data

Results flagged for a closer look

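In 7 of 104 combinations of gene and group, 1 array lay far from the other 5 by Dixon's ratio, which chance gives in about 1 of 20 groups. In LD, Fstl3 was 5.18 in replicate 1 against 5.66 to 5.93 in the others, Inha 5.11 in replicate 3 against 4.13 to 4.44, and Bmp15 2.26 in replicate 2 against 1.67 to 1.87. In CPS, replicate 1 was highest for Grem1, at 5.38 against 4.66 to 4.88, and for Gdf2, at 2.86 against 2.25 to 2.44. CPS replicate 2 was lowest for Inha, at 4.11 against 4.49 to 4.61, and for Bmp8b, at 2.33 against 2.64 to 2.71. Bmp15, Gdf2 and Bmp8b had mean levels at or below the dim reference. CPS replicate 1 also had the highest mean of the skeletal muscle markers, 7.39, and with that mean as a covariate the Grem1 difference was -0.29 and passed the unadjusted threshold. None of the genes that passed the test was among these.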

How the results depend on the processing

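The number of members higher in CPS, 6, was 5 to 7 in the planned settings, with the muscle or endothelial mean as a covariate, and with 1 array left out, and none of the 6 changed direction in any setting run. The methods' test gave 5 higher, without Bmp3, and 0 lower. Without the LD and CPS arrays richest in liver RNA markers, a setting chosen after the data were seen, 2 were higher (Acvr1b and Acvrl1) and 1 lower (Ltbp2, -0.43), from 5 arrays a group. Members lower in CPS numbered 1 with the skeletal muscle mean as a covariate (Grem1) and 0 to 1 with 1 array left out (Gdf6 without LD replicate 1, Grem1 without CPS replicate 1). The same replicate numbers did not pair arrays, with correlations of -0.064 to 0.046 between same-numbered arrays, and with the replicate number as a block 5 members were higher, 1 lower (Gdf6, -0.33, limma p = 0.0282) and 1984 clusters passed. Tgfb1 passed without CPS replicate 4 or 6, and with the liver and adrenal means as covariates, at 0.27. Over all clusters, 1946 passed, 1223 of the 18343 at or above the median level, and 1639 to 2555 with 1 array left out. Median centring turned 872 higher and 1074 lower clusters into 1151 and 672, and 428 higher and 259 lower named genes into 532 and 96. Median centring raised every difference by the same amount, as for Acvr1b (0.27 to 0.31) and Id1 (-0.19 to -0.15). Otherwise the cause of these changes was not tested, apart from the fewer arrays or clusters where named. Over the planned settings, the median difference of ligands ran from 0.02 (without CPS replicate 5) to 0.09 (liver and adrenal means as covariates). For receptors it ran from 0.09 to 0.19 (clusters at or above the median level), and for Smads from -0.02 to 0.04. For binding proteins and antagonists it ran from 0.03 (without LD replicate 1) to 0.17. These medians were not computed without the arrays richest in liver RNA markers, or with the muscle or endothelial mean as a covariate. Of the single-gene results recomputed, 830 stayed on their side of the threshold, 68 lost and 8 gained the call.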
